A study of Mus musculus with 6 samples.

Results

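The 40 genes described here encode enzymes of folate one-carbon metabolism, the glycine cleavage system, the methionine cycle, serine synthesis and the making of purine and pyrimidine nucleotides. They were chosen by gene symbol, as members of these pathways, from the 55291 symbols of the deposited table. All 40 were found there, and 38 of them had enough reads to be tested. The table compares fully grown mouse oocytes that lack NAT10, the enzyme that acetylates cytidine in RNA, with oocytes from wild-type females. The Nat10 cKO group came from mature females in which Cre, driven by the oocyte gene Gdf9, removes floxed Nat10 in oocytes, while the other ovarian cells keep it. The WT group came from mature wild-type females. Females of both groups received PMSG, the gonadotropin that makes follicles grow, and oocytes were taken 36 to 48 h later per the labels' protocol, or 32 to 48 h later per the series' design text. Each library was made by Smart-seq2, which copies and amplifies polyadenylated RNA, from a pool of 10 oocytes, with 3 libraries per genotype. Ages in weeks and the females behind each pool are not given, so p-values measure the spread between these libraries, which may be technical. A level in a pool also cannot tell fewer oocytes that hold an mRNA from less of it in each oocyte.

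Folate carries single carbon units between reactions. In mitochondria, serine hydroxymethyltransferase and the glycine cleavage system load carbons onto tetrahydrofolate, and in the cytosol the loaded folates feed purine rings, thymidylate and the remethylation of homocysteine to methionine. Methionine becomes S-adenosylmethionine, the methyl donor for DNA, RNA, histones and small molecules. A fully grown oocyte is arrested in meiotic prophase, stores RNA for the embryo and does not replicate its DNA, and its mRNAs can be kept for later translation, so an mRNA level is not a measure of enzyme.

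Library sizes were 74098613, 47409048 and 71039900 reads in Nat10 cKO replicates 1, 2 and 3, and 33520334, 34119952 and 65451269 reads in WT replicates 1, 2 and 3. Levels below are CPM (reads scaled to a common library total) with TMM factors, which set each library against the bulk of its own mRNAs, and changes are Nat10 cKO minus WT on the log2(CPM + 1) scale, tested across 18353 genes with limma at an adjusted p of 0.05. Nat10 itself, the targeted gene, had 5.72, 5.97 and 6.32 CPM in Nat10 cKO libraries, against 42.1, 50.1 and 39.3 CPM in WT libraries, and fell by 2.67 on the log2 scale (SE 0.129, adjusted p = 4.29e-08). The 12 oocyte markers were all present, at a summed 33596 to 40241 CPM in Nat10 cKO and 26249 to 27895 CPM in WT. They were led by Gdf9, Padi6 and Bmp15. Of the 12, 10 (83.3%) rose and 2 (16.7%) fell, beside 17.4% and 17.6% of all tested genes. The 22 granulosa and cumulus markers summed to 399 to 441 CPM in Nat10 cKO and 420 to 474 CPM in WT, with Serpine2, Cyp19a1 and Nr5a2 most abundant, and 14 of them, among them Amh, Fshr and Foxl2, were under 1 CPM on average over the libraries. The 16 theca, stroma and endothelium markers summed to 94.1 to 108 CPM in Nat10 cKO and 98 to 103.5 CPM in WT, led by Pecam1, Myh11 and Tek, with Col3a1 at 0 reads and 10 under 1 CPM. The 13 blood and immune markers summed to 41.7 to 45.8 CPM in Nat10 cKO and 51.5 to 56.2 CPM in WT, led by C1qb, H2-Aa and Cd68, with C1qc at 0 reads and 10 under 1 CPM. The part of these other cell types in the values below was not tested.

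Of the 38 tested members, 18 (47.4%) rose in Nat10 cKO oocytes, where 17.4% of all tested genes rose, and 1 (2.63%) fell, where 17.6% of all tested genes fell. The 18 include Psat1, a serine synthesis gene that entered the test through its Nat10 cKO libraries alone and therefore had to differ; without it, 17 of 37 (45.9%) rose. The gene that fell was Tyms, which makes thymidylate. On the log2(CPM + 1) scale the largest rises were those of Gcsh, the lipoyl carrier of glycine cleavage; Ppat, the entry enzyme of purine synthesis; Impdh2, which commits IMP to GMP; and Adsl, adenylosuccinate lyase. The order depends on the pseudocount at low levels, since edgeR gave a change of 2.18 for Gcsh, 2.06 for Psat1 and 1.98 for Ppat, ahead of 1.22 for Impdh2 and 1.17 for Adsl. Gcsh, Ppat, Impdh2 and Adsl, 4 of the 38, rose at least 2-fold on the log2(CPM + 1) scale, as did 459 of all 18353 tested genes. Rises of at least 1.5-fold were seen in 9 members, which is 23.7% of the tested members, beside 8.11% of all tested genes. The median change of the 38 was 0.26, beside 0.00096 for all tested genes. Of the 38 changes 34 were positive, as were 9190 of the 18353 changes of all tested genes. In 20 members (52.6%) every Nat10 cKO library was above every WT library, as in 24.1% of all tested genes. Without Psat1, whose groups had to stand apart, this held in 19 of 37 (51.4%). In 2 members every Nat10 cKO library was below every WT library, as in 24.2% of all tested genes. These shares describe members picked with earlier results of the data known, and carry no test of the list. Without the filter on low reads, the median over all 40 members was 0.27, beside 0.0067 for all genes.

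**Figure D1:**
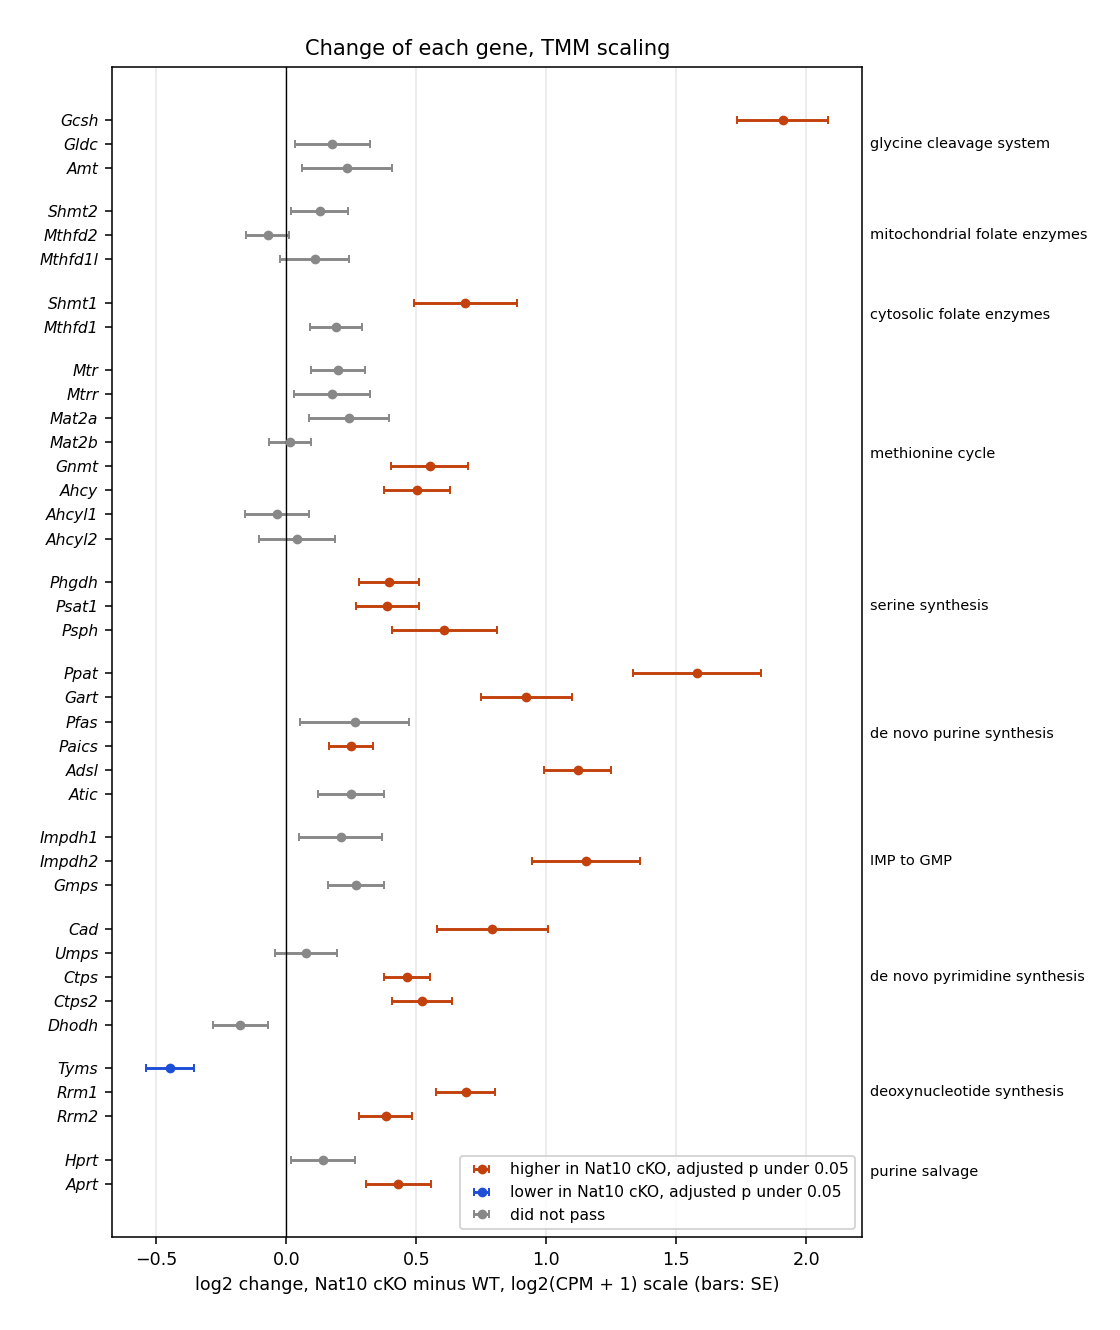
Log2 change of each of the 38 tested genes (x axis, Nat10 cKO minus WT, log2(CPM + 1) scale, TMM scaling), grouped by role, with bars of 1 SE. The 18 genes that rose lie between 0.25 and 1.91, Tyms is the 1 gene that fell, and the 19 grey points did not pass.

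How far the counts hold depends on how the libraries are set against each other. On the deposited scale, which multiplies reads by the authors' factor for each library and leaves depth in, 7 members rose (Gcsh, Psat1, Ppat, Gart, Adsl, Impdh2 and Cad), where 6.58% of all tested genes rose, and 0 fell, where 1.39% of all tested genes fell. Psat1 is counted among these 7 although it entered the test through its Nat10 cKO libraries alone and had to differ. The other members named below as risen did not pass on that scale. That scale moved the median of all tested genes to 0.24, and the members' median was 0.58, or 0.34 above it. When CPM were multiplied by the same factors instead, 5 members rose (Gcsh, Ppat, Gart, Adsl and Impdh2), where 5.60% of all tested genes rose, and Tyms again fell, where 16.5% of all tested genes fell. There the median of all tested genes was -0.15 and that of the members 0.10, a gap of 0.25. Gcsh, Ppat, Gart, Adsl and Impdh2 were thus the members that rose under all 3 scalings, and they also passed in each of 18 alternatives. Relative to the median of all tested genes, the change of Gcsh was 1.91 with TMM scaling, 1.95 on the deposited scale and 1.86 on the scale of CPM times the factor, and that of Tyms was -0.45 with TMM scaling, -0.33 on the deposited scale and -0.52 on the scale of CPM times the factor.

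**Figure D2:**
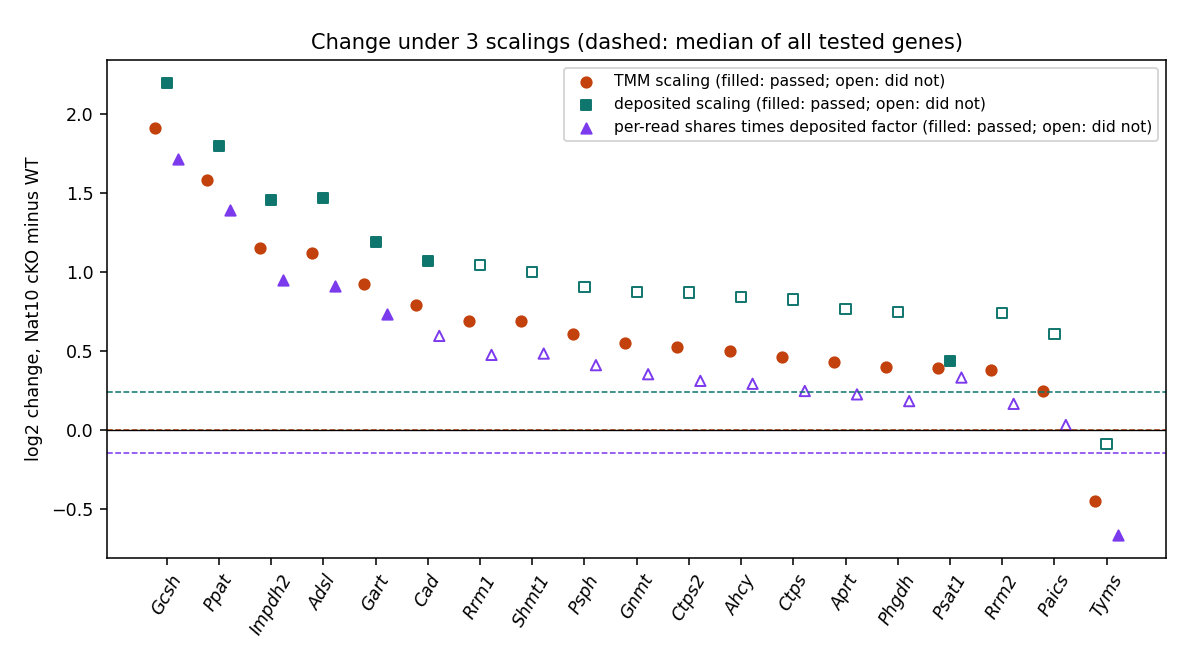
Log2 change (y axis, Nat10 cKO minus WT) of the 19 genes that passed with TMM scaling, under TMM scaling, the deposited scale and CPM times the deposited factor, with filled symbols where the gene passed and dashed lines at the median of all tested genes. Gcsh, Ppat, Impdh2, Adsl and Gart are filled on all 3 scales, and the dashed lines lie at 0.00096, 0.24 and -0.15.

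Start-site windows of 5 members are printed here because these genes carry the largest changes (Gcsh, Ppat, Impdh2), lie back to back (Ppat and Paics) or went the other way (Tyms). Each window runs 250 bases before to 50 bases after the start, on RefSeq's GRCm38.p6, and capitals mark the palindrome CACGTG, the E-box bound by MYC and other basic helix-loop-helix factors.
Gcsh (chr8:116993449-116993748, minus strand): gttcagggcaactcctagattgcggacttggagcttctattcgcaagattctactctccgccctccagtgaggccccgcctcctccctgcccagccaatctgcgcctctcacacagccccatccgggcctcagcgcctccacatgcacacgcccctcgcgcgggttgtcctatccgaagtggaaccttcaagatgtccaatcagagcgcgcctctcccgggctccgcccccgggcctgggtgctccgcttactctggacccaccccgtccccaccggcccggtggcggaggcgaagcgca
Ppat (chr5:76951529-76951828, minus strand): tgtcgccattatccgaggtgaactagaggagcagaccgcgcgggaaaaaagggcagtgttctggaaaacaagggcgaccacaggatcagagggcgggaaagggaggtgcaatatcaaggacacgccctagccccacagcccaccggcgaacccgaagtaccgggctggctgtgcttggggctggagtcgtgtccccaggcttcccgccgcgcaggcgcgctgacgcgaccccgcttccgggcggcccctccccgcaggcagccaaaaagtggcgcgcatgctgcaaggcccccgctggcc
Paics (chr5:76951052-76951351, plus strand): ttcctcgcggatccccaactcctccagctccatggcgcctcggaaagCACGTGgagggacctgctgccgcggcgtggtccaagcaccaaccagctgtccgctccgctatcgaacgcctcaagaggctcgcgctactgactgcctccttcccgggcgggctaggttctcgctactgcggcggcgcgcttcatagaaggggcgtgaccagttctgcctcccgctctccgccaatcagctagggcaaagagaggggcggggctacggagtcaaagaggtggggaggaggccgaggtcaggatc
Impdh2 (chr9:108560186-108560485, plus strand): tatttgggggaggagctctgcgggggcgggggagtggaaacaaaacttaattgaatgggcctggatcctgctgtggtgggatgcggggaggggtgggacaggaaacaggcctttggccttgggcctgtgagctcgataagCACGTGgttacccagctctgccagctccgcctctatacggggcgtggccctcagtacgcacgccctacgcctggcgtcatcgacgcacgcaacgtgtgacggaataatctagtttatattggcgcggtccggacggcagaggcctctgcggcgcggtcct
Tyms (chr5:30073576-30073875, minus strand): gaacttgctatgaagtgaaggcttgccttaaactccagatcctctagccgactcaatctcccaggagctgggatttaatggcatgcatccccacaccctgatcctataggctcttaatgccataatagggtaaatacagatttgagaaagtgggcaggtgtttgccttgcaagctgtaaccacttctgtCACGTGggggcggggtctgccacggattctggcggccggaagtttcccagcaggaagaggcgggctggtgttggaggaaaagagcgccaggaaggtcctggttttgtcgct
RefSeq windows were matched for 38 of the 40 members, all but Pfas and Dhodh. CACGTG stood in 4 of the members' 48 windows (8.33%), those of Atic, Impdh2, Paics and Tyms, close to the 7.15% of 32817 windows of all genes. The 4 include genes that rose, the gene that fell and Atic, which did not pass, whereas the windows of Gcsh and Ppat hold no CACGTG. Neither TGATGNAA, a C/EBP-ATF response element, nor TTTNGCGC, an E2F motif, was found on either strand of the members' windows, beside 3.97% of all windows for TGATGNAA and 1.38% for TTTNGCGC, so no match overlaps one of another motif. The members' windows were rich in G and C, with a median of 61.2% over 48 windows, beside 52.7% over all windows, and held a median of 19 CpG, beside 7.

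Levels between genes can be compared per kilobase of exon. Mat2b, the regulatory subunit of S-adenosylmethionine synthesis, was the most abundant member at 371 CPM per kb in Nat10 cKO and 368 in WT. Ctps, which makes CTP, followed with 160 CPM per kb in Nat10 cKO and 116 in WT, and Hprt, which salvages hypoxanthine and guanine, with 105 in Nat10 cKO and 96.0 in WT. At the other end, Psat1 reached 0.109 CPM per kb in Nat10 cKO and 0.026 in WT, and only the untested Mthfd2l and Bhmt lay lower. Members with the largest fold changes were not the abundant ones. Gcsh stood at 10.6 CPM per kb in Nat10 cKO and 2.34 in WT, Impdh2 at 5.43 in Nat10 cKO and 2.33 in WT, and Ppat at 1.59 in Nat10 cKO and 0.405 in WT, which are places 24, 25 and 34 of 40 in the WT order.

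**Figure D3:**
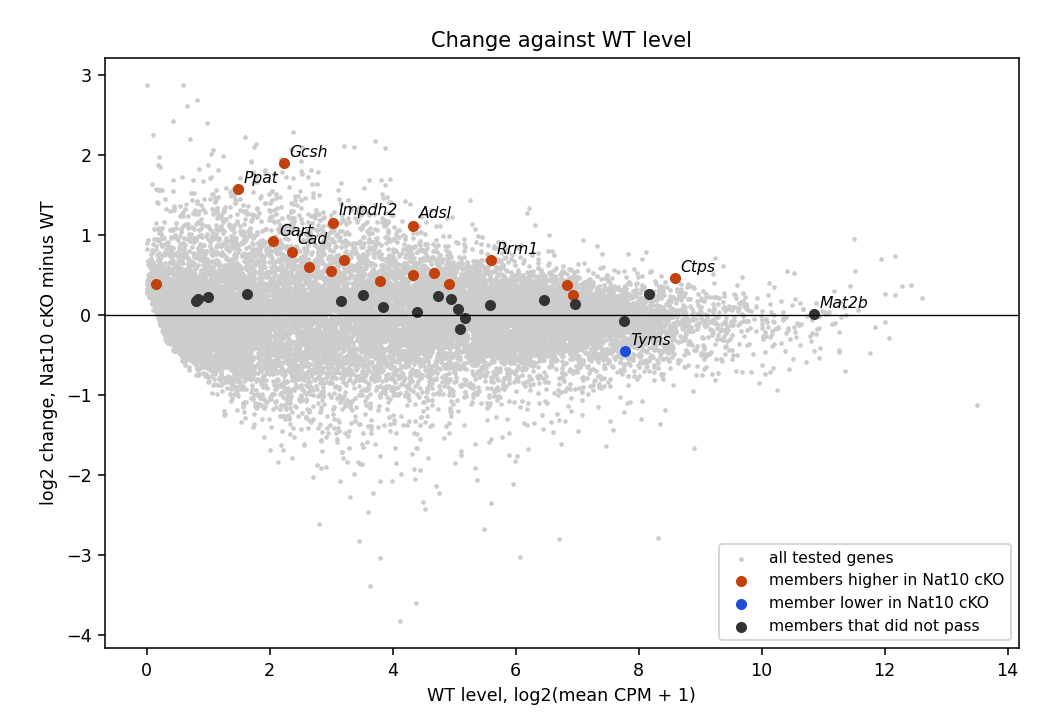
Log2 change (y axis, Nat10 cKO minus WT) against WT level (x axis, log2 of mean CPM + 1) for all 18353 tested genes in grey and the 38 tested members in colour. Gcsh and Ppat sit at the top on the low side of the level axis, while the abundant Mat2b sits at 0.01.

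The glycine cleavage system splits glycine and passes its carbon to folate. Gcsh (chr8:116981810-116993537, minus strand, GRCm38), which encodes the H protein that carries the lipoyl arm between the other subunits, had 16.3, 20.9 and 13.2 CPM in Nat10 cKO libraries, against 3.03, 4.19 and 3.87 CPM in WT libraries. The lowest Nat10 cKO library was above the highest WT library. Gcsh rose by 1.91 (SE 0.176, adjusted p = 1.44e-05), the largest change among the members, with means of 16.8 ± 3.90 CPM in Nat10 cKO and 3.70 ± 0.601 CPM in WT (SD, n = 3 each). Its partners Gldc and Amt did not pass and were scarce. Gldc, the decarboxylase, had 0.802, 1.13 and 0.940 CPM in Nat10 cKO, against 0.989, 0.517 and 0.715 CPM in WT (change 0.18, adjusted p = 0.367). Amt, the aminomethyltransferase that hands the carbon to folate, had 1.23, 1.49 and 1.18 CPM in Nat10 cKO, against 0.556, 0.919 and 1.49 CPM in WT (change 0.23, adjusted p = 0.322). For both genes the groups overlapped. Within a library, Gcsh had 20.3, 18.5 and 14.0 reads for each Gldc read in Nat10 cKO, against 3.06, 8.11 and 5.41 in WT. These read ratios do not depend on scaling, and the groups did not overlap. The test used log2 ratios of CPM with the pseudocount of 1 added, which is about as large as Gldc itself. The exact permutation p was 0.1, two-sided, the smallest that 3 against 3 allows (adjusted over 10 ratios, 0.2).

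Of the 4 mitochondrial folate enzymes 3 were tested, and 0 of these passed. Shmt2, which turns serine into glycine and loads the carbon, averaged 51.6 ± 5.48 CPM in Nat10 cKO and 47.1 ± 3.93 CPM in WT (SD, n = 3 each; change 0.13, adjusted p = 0.387). Mthfd2, the mitochondrial dehydrogenase and cyclohydrolase, averaged 207 ± 6.24 CPM in Nat10 cKO and 217 ± 10.5 CPM in WT (change -0.07, adjusted p = 0.536). Mthfd1l, which releases formate, averaged 14.5 ± 0.684 CPM in Nat10 cKO and 13.4 ± 1.65 CPM in WT (change 0.11, adjusted p = 0.553). Mthfd2l, a close relative of Mthfd2, was too low to test, with 12, 0 and 2 reads in Nat10 cKO and 7, 0 and 8 reads in WT. Of the 2 cytosolic enzymes, Shmt1 passed. It interconverts serine and glycine in the cytosol, and had 13.1, 13.4 and 13.5 CPM in Nat10 cKO, against 5.28, 11.3 and 8.14 CPM in WT. The Nat10 cKO libraries lay close together and above the spread-out WT libraries, and Shmt1 rose by 0.69 (SE 0.199, adjusted p = 0.0164). The call was lost without WT replicate 1 (adjusted p = 0.0616) and without WT replicate 3 (adjusted p = 0.0524). Mthfd1, the trifunctional cytosolic enzyme, averaged 99.7 ± 7.49 CPM in Nat10 cKO and 87.3 ± 8.10 CPM in WT (change 0.19, adjusted p = 0.155). Shmt2 had 3.80, 3.52 and 4.277 reads for each Shmt1 read in Nat10 cKO, against 9.5, 4.285 and 5.24 in WT. These read ratios came close without overlap. The log2 ratios tested, with the pseudocount added, did overlap, as Nat10 cKO replicate 3 (2.018) lay above WT replicate 2 (2.006). The exact permutation p on these log2 ratios was 0.2 (adjusted 0.333). By compartment, 1 of 7 tested mitochondrial members rose (14.3%), with a median change of 0.13, which is near the 17.4% of all tested genes. Of 31 tested cytosolic members 17 rose (54.8%), with a median of 0.38. These 17 include Psat1, which entered the test through its Nat10 cKO libraries alone and had to differ. The difference between compartments was not tested.

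In the methionine cycle 2 of 8 tested genes rose, which is 25.0% beside 17.4% of all tested genes and no result about the cycle as a whole. They were Gnmt and Ahcy, which act on either side of S-adenosylhomocysteine. Gnmt, the glycine methyltransferase that uses up S-adenosylmethionine, had 10.1, 10.6 and 11.1 CPM in Nat10 cKO, against 7.97, 7.23 and 5.76 CPM in WT. Ahcy, the hydrolase that clears S-adenosylhomocysteine, had 24.7, 31.3 and 26.8 CPM in Nat10 cKO, against 17.2, 20.3 and 19.9 CPM in WT. Neither gene's groups overlapped; Gnmt rose by 0.55 (SE 0.148, adjusted p = 0.0113) and Ahcy by 0.50 (SE 0.126, adjusted p = 0.00776). Without WT replicate 3 Gnmt did not pass (adjusted p = 0.0714). The Ahcy-like genes, whose products bind IP3 receptors and other partners, did not pass. Ahcyl1 averaged 34.2 ± 2.38 CPM in Nat10 cKO and 35.2 ± 5.18 CPM in WT (change -0.04, adjusted p = 0.845). Ahcyl2 averaged 20.7 ± 3.17 CPM in Nat10 cKO and 20.1 ± 3.38 CPM in WT (change 0.04, adjusted p = 0.85). Ahcyl1 gave 1.33, 1.05 and 1.38 reads for each Ahcy read in Nat10 cKO libraries, against 1.74, 1.99 and 1.77 in WT libraries. These ratios did not overlap either (exact permutation p = 0.1, adjusted 0.2).

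The genes that make methionine and S-adenosylmethionine did not pass. Mtr, methionine synthase, had 32.2, 36.7 and 34.1 CPM in Nat10 cKO, against 30.3, 30.0 and 29.0 CPM in WT, without overlap (change 0.20, adjusted p = 0.155). Mtrr, which reactivates it, averaged 9.11 ± 1.10 CPM in Nat10 cKO and 7.95 ± 0.827 CPM in WT (change 0.17, adjusted p = 0.381). Bhmt, the betaine-dependent route known from liver, had 2 reads in each of the 6 libraries and was not tested. Mat2a, the catalytic subunit of S-adenosylmethionine synthesis, had 31.2, 38.6 and 23.4 CPM in Nat10 cKO, against 27.5, 24.4 and 25.0 CPM in WT (change 0.24, adjusted p = 0.244). The Nat10 cKO libraries of Mat2a lay on both sides of the WT libraries, and without Nat10 cKO replicate 3 Mat2a passed (change 0.43, adjusted p = 0.0174). Mat2b, its regulatory partner, had 1879, 1924 and 1766 CPM in Nat10 cKO, against 1921, 1706 and 1895 CPM in WT (change 0.01, adjusted p = 0.915).

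Of the 3 serine synthesis genes, Phgdh and Psph rose, and Psat1 passed only as a gene that had to differ. Phgdh, the first enzyme of the route, had 35.4, 39.0 and 41.4 CPM in Nat10 cKO, against 28.4, 32.7 and 26.4 CPM in WT, and rose by 0.40 (SE 0.115, adjusted p = 0.0174). Psph, the last enzyme, had 7.35, 7.42 and 10.3 CPM in Nat10 cKO, against 3.89, 7.29 and 4.54 CPM in WT, and rose by 0.61 (SE 0.201, adjusted p = 0.0315). The groups nearly touch in Psph, since WT replicate 2 lay just below the lowest Nat10 cKO library. Phgdh did not pass without WT replicate 1 (adjusted p = 0.0522) or WT replicate 3 (adjusted p = 0.0932), nor did Psph without Nat10 cKO replicate 3 (adjusted p = 0.0947), WT replicate 1 or WT replicate 3 (adjusted p = 0.121 for each). Exons of Psph (chr5:129765558-129787449, minus strand) overlap those of Cct6a, a chaperonin subunit, over 452 bp on the opposite strand, 10.4% of the Psph exons. Cct6a had 52.4, 69.2 and 41.0 CPM in Nat10 cKO, against 5.81, 18.9 and 11.6 CPM in WT, and rose by 2.18 (SE 0.345, adjusted p = 0.00162). The sources used here do not say whether counting used the strand, so reads of the shared bases cannot be told apart, and their part in the Psph rise was not tested. Psat1, the aminotransferase between them, had 40, 30 and 16 reads in Nat10 cKO, against 2, 6 and 6 reads in WT. Its change was 0.39 on the log2(CPM + 1) scale (SE 0.123, adjusted p = 0.0253), a size set by the pseudocount at this level, since edgeR gave 2.06 and the ratio of mean CPM was 4.24. It entered the test through its Nat10 cKO libraries alone, so it had to differ, and its level of 0.221 to 0.630 CPM in Nat10 cKO and 0.0618 to 0.172 CPM in WT is far below those of its neighbours. Psat1 passed in 10 of 18 alternatives. Its call was lost without Nat10 cKO replicate 1, Nat10 cKO replicate 2, WT replicate 1 or WT replicate 3, with adjusted p between 0.0671 and 0.0917, and also without the filter (adjusted p = 0.0521) and with CPM times the deposited factor (adjusted p = 0.0529). With a mean of at least 1 CPM required, or with reads thinned to equal depth, it was no longer tested.

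Of the 6 de novo purine genes 4 rose (66.7%), beside 17.4% of all tested genes, and the list as such was not tested. Ppat (chr5:76913249-76951578, minus strand), the amidotransferase that commits phosphoribosyl pyrophosphate to purines, had 6.59, 8.85 and 5.64 CPM in Nat10 cKO, against 0.865, 3.04 and 1.46 CPM in WT, and rose by 1.58 (SE 0.246, adjusted p = 0.000448). Gart (chr16:91621186-91646952, minus strand), which holds 3 activities and uses a formyl-folate, had 6.23, 8.13 and 6.22 CPM in Nat10 cKO, against 2.44, 3.90 and 3.14 CPM in WT, and rose by 0.92 (SE 0.174, adjusted p = 0.00146). Adsl (chr15:80948490-80970946, plus strand), which acts in IMP synthesis and again in AMP synthesis, had 42.2, 50.7 and 36.7 CPM in Nat10 cKO, against 18.6, 20.6 and 18.3 CPM in WT, and rose by 1.12 (SE 0.128, adjusted p = 7.09e-05). In all 3 the groups stood apart, and Nat10 cKO replicate 2 was the highest library. Paics, which joins the carboxylase and the next ligase, had 143, 148 and 141 CPM in Nat10 cKO, against 124, 116 and 124 CPM in WT. It rose by 0.25 (SE 0.0836, adjusted p = 0.0339), a small change that passed in 9 of 18 alternatives. Without Nat10 cKO replicate 1 or 2, or any 1 of the WT replicates, the adjusted p of Paics was between 0.0505 and 0.101. The genes that did not pass were Pfas and Atic. Pfas, the amidotransferase of a middle step, had 2.7, 2.4 and 2.67 CPM in Nat10 cKO, against 1.05, 2.67 and 2.55 CPM in WT (change 0.26, adjusted p = 0.352). Atic, which closes the ring, had 12.1, 13.6 and 12.2 CPM in Nat10 cKO, against 10.3, 10.6 and 10.4 CPM in WT, without overlap (change 0.25, adjusted p = 0.145).

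Ppat and Paics lie head to head, and their windows are printed above. The start of Paics (chr5:76951307-76967509, plus strand) lies inside the exons of Ppat, so the annotated exons share 272 bp on opposite strands, 6.15% of the Ppat exons and 8.67% of the Paics exons. Paics gave 21.7, 16.8 and 25.1 reads for each Ppat read in Nat10 cKO, against 143, 38.3 and 84.8 in WT. The groups did not overlap (exact permutation p = 0.1, adjusted 0.2). The 3 WT ratios are spread widely, with Ppat lowest in WT replicate 1, where it had 28 reads. As for Psph, reads of the shared bases cannot be told apart. Their part in the Ppat level, its rise and this ratio was not tested.

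From IMP to GMP, Impdh2 passed and the other tested genes did not. Impdh2 (chr9:108560286-108565584, plus strand), the main IMP dehydrogenase of dividing cells, had 15.0, 20.4 and 14.7 CPM in Nat10 cKO, against 4.57, 9.42 and 7.47 CPM in WT, and rose by 1.15 (SE 0.207, adjusted p = 0.00111). Its isoenzyme Impdh1 had 0.949, 1.51 and 0.774 CPM in Nat10 cKO, against 0.989, 0.746 and 0.622 CPM in WT (change 0.21, adjusted p = 0.329). Impdh2 had 15.8, 13.5 and 19.0 reads for each Impdh1 read in Nat10 cKO, against 4.62, 12.6 and 12 in WT (exact permutation p = 0.1, adjusted 0.2). Without overlap, WT replicates 2 and 3 still came near the lowest Nat10 cKO library. Gmps, which aminates XMP to GMP, had 355, 382 and 304 CPM in Nat10 cKO, against 319, 252 and 294 CPM in WT (change 0.27, adjusted p = 0.0708). It passed in 3 of 18 alternatives, with library size as the only scaling (adjusted p = 0.033), without Nat10 cKO replicate 3 (adjusted p = 0.0136) and without WT replicate 1 (adjusted p = 0.0447). In salvage, Aprt, which recovers adenine, had 18.2, 17.5 and 17.3 CPM in Nat10 cKO, against 11.4, 13.6 and 13.6 CPM in WT. Aprt rose by 0.43 (SE 0.126, adjusted p = 0.0172), with no overlap. Its call was lost without Nat10 cKO replicate 1 (adjusted p = 0.078) and without WT replicate 1 (adjusted p = 0.0696). Hprt averaged 136 ± 14.1 CPM in Nat10 cKO and 124 ± 20.8 CPM in WT (change 0.14, adjusted p = 0.403).

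**Figure D4:**
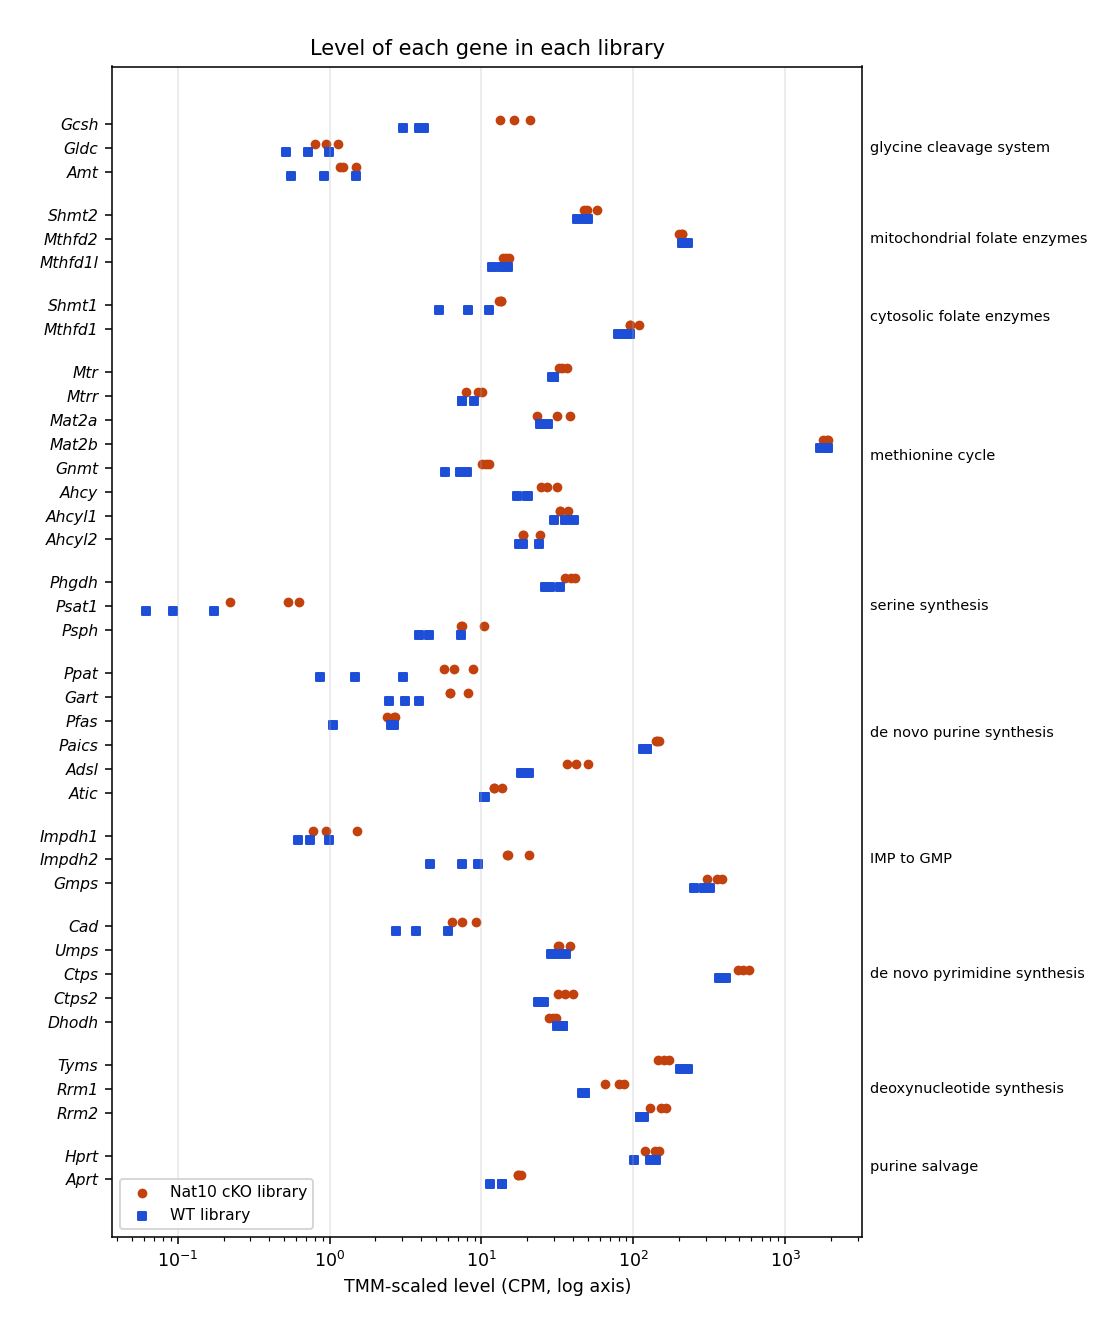
Level of each of the 38 tested genes in each library (x axis, TMM-scaled CPM, log axis), grouped by role, with Nat10 cKO libraries as orange circles above WT libraries as blue squares. The 2 groups stand clear of each other in Gcsh, Ppat, Gart, Adsl and Impdh2, and Tyms is the called gene whose Nat10 cKO libraries, at 146 to 173 CPM, lie below its WT libraries, at 204 to 228 CPM.

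Of the 5 pyrimidine genes 3 rose (60%), Cad and both CTP synthases, beside 17.4% of all tested genes, and the list as such was not tested. Cad, which starts the ring, had 6.42, 9.20 and 7.41 CPM in Nat10 cKO, against 2.72, 5.97 and 3.73 CPM in WT, and rose by 0.79 (SE 0.213, adjusted p = 0.0115). Without WT replicate 3 Cad did not pass (adjusted p = 0.0522). Ctps had 530, 576 and 488 CPM in Nat10 cKO, against 407, 368 and 378 CPM in WT, and rose by 0.46 (SE 0.0878, adjusted p = 0.00149). Ctps2, its paralog, had 35.5, 39.9 and 32.0 CPM in Nat10 cKO, against 23.6, 26.0 and 24.0 CPM in WT, and rose by 0.52 (SE 0.115, adjusted p = 0.00377). The 2 synthases lay at very different levels. Their ratio, Ctps2 over Ctps, was 0.0670, 0.0692 and 0.0655 in Nat10 cKO, against 0.0580, 0.0706 and 0.0634 in WT, a difference of 0.06 on the log2 scale (exact permutation p = 0.6, adjusted 0.75). The middle steps did not pass. Dhodh, the mitochondrial dihydroorotate dehydrogenase, had 27.9, 29.4 and 30.9 CPM in Nat10 cKO, against 34.2, 34.4 and 31.5 CPM in WT (change -0.18, adjusted p = 0.209), and every Nat10 cKO library was below every WT library. Umps, which makes UMP, averaged 34.1 ± 3.62 CPM in Nat10 cKO and 32.3 ± 3.56 CPM in WT (change 0.08, adjusted p = 0.651).

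The deoxynucleotide genes split in direction. Rrm1, the large subunit of ribonucleotide reductase, had 80.7, 87.1 and 65.2 CPM in Nat10 cKO, against 45.7, 48.3 and 48.3 CPM in WT, and rose by 0.69 (SE 0.112, adjusted p = 0.000585). Rrm2, the small subunit of dividing cells, had 153, 163 and 128 CPM in Nat10 cKO, against 110, 110 and 118 CPM in WT, and rose by 0.38 (SE 0.101, adjusted p = 0.0105). Both subunits lay higher in every Nat10 cKO library than in any WT library, and Rrm2 lost its call without Nat10 cKO replicate 1 (adjusted p = 0.0504). Rrm2 had 1.90, 1.87 and 1.96 reads for each Rrm1 read in Nat10 cKO, against 2.41, 2.29 and 2.44 in WT, a difference of -0.31 on the log2 scale (exact permutation p = 0.1, adjusted 0.2). Tyms (chr5:30058202-30073617, minus strand), which methylates dUMP to thymidylate with a folate carbon, had 159, 146 and 173 CPM in Nat10 cKO, against 228, 204 and 220 CPM in WT. Every Nat10 cKO library was below every WT library, and Tyms fell by 0.45 on the log2 scale (SE 0.0916, adjusted p = 0.00248). On the deposited scale the change of Tyms was -0.09 and did not pass (adjusted p = 0.922).

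The same libraries recurred at the ends of their group's range. Among the 18 members that rose, Nat10 cKO replicate 2 was the highest Nat10 cKO library in 13, and WT replicate 2 was the highest WT library in 14. WT replicate 1 was the lowest WT library in 13. WT replicate 1 was the lowest and WT replicate 2 the highest of the WT libraries in many of them. These were Gcsh, Shmt1, Ahcy, Psat1, Psph, Ppat, Gart, Impdh2, Cad, Ctps2, Rrm1 and Aprt. On the first principal component of all genes, which holds 74.3% of the variance, Nat10 cKO replicate 2 lies at -44.8, at the far end of the Nat10 cKO libraries, and WT replicate 2 at 23.1, at the near end of the WT libraries. Without WT replicate 3, 11 members (28.9%) rose, beside 11.4% of all tested genes. Without WT replicate 1, 13 (34.2%) rose, beside 12.4% of all tested genes, and without Nat10 cKO replicate 1, 14 (36.8%) rose, beside 12.2%. With reads thinned to equal depth, 17 of 37 (45.9%) rose, beside 18.3%, and Tyms fell in each of these fits.

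Other annotated exons overlap those of 13 members, in 12 cases from the opposite strand. Besides the pairs above, Gart shares 1014 bp (19.7% of its exons) with the antisense RNA Gm15964, which had 1.86, 1.64 and 1.42 CPM in Nat10 cKO, against 1.85, 1.12 and 1.91 CPM in WT. The change of Gm15964 was 0.02 and did not pass (adjusted p = 0.944). Impdh2 shares 48 bp with Ndufaf3, Shmt1 184 bp with Smcr8, Shmt2 32 bp with Ndufa4l2, and Mat2a 508 bp with Particl, which has 0 reads. Umps, Mthfd1, Bhmt and Ahcyl2 overlap the unnamed or uncharacterised models Gm15829, Gm47525, Gm15622 and 4930528J11Rik, and Pfas the microRNA gene Mir3062. The table also lists pseudogenes named after Bhmt, Phgdh, Impdh2, Tyms and Aprt, and no source used here says how reads shared with such copies were counted, so these 5 genes are less certain.

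In the neighbouring steps, taken as 6 lists of 102 genes, 18 of 88 tested genes (20.5%) rose, beside 17.4% of all tested genes, and 11 (12.5%) fell, beside 17.6%, with a median change of 0.07. These shares are near the background, so the counts of the lists below say nothing about the lists as such, and the genes are given for their own values. In folate uptake and reduction 3 of 12 tested genes rose and 0 fell. These were Slc19a1, the reduced folate carrier, Ggh and Aldh1l2, which are named here after their values were seen. Aldh1l2 had 26, 17 and 20 reads in Nat10 cKO, against 2, 6 and 4 reads in WT. It entered the test through its Nat10 cKO libraries alone and therefore had to differ, as did Uck1, given below. Both are among the 18 of 88 that rose. Beside glycine cleavage, 1 of 9 lipoylation genes rose (Lias) and 2 fell (Glrx5 and the lipoyltransferase Lipt1). Lias, the lipoyl synthase whose product the H protein carries, had 12.7, 15.3 and 12.4 CPM in Nat10 cKO, against 3.21, 8.12 and 4.85 CPM in WT, and rose by 1.24 (SE 0.225, adjusted p = 0.00116). Glrx5, a mitochondrial iron-sulfur cluster factor, had 203, 162 and 222 CPM in Nat10 cKO, against 343, 343 and 325 CPM in WT, and fell by 0.79 (adjusted p = 0.000198). Beside the methionine cycle, 3 of 17 tested genes rose and 2 fell. Cth, which turns cystathionine into cysteine, had 8.90, 9.75 and 8.73 CPM in Nat10 cKO, against 39.2, 24.9 and 36.4 CPM in WT, and fell by 1.74 (SE 0.158, adjusted p = 1.27e-05). Cth fell on the deposited scale too, by 1.40 (adjusted p = 0.0103). Gamt, the guanidinoacetate methyltransferase of creatine synthesis, rose by 0.71 (adjusted p = 0.00747).

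**Figure D5:**
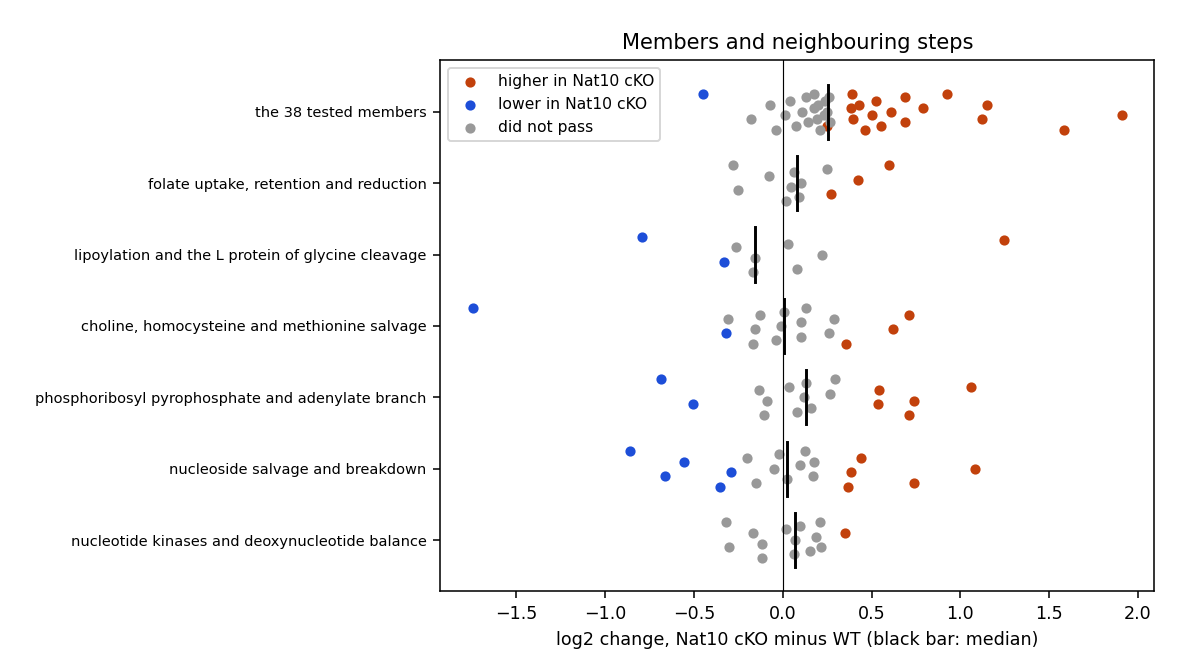
Log2 change (x axis, Nat10 cKO minus WT, TMM scaling) of each tested gene of the 38 members and of 6 lists of neighbouring steps, with 1 point per gene, orange where it rose, blue where it fell, grey where it did not pass, and black bars at list medians. The members' bar is at 0.26 and the bars of the other lists lie between -0.16 and 0.13, with Cth as the lowest point at -1.74.

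Around the purines, 5 of 17 tested genes rose and 2 fell. Itpa, which removes inosine triphosphate, had 26.1, 30.1 and 24.4 CPM in Nat10 cKO, against 10.2, 14.7 and 12.4 CPM in WT, and rose by 1.06 (adjusted p = 0.000198). Guk1, guanylate kinase, had 10.9, 13.3 and 11 CPM in Nat10 cKO, against 5.65, 7.64 and 7.09 CPM in WT, and rose by 0.71 (adjusted p = 0.00311). In nucleoside salvage and breakdown, 5 of 19 rose and 5 fell. The 5 that rose include Uck1, named after its values were seen, with 26, 16 and 40 reads in Nat10 cKO, against 0, 4 and 8 in WT. Uck1 entered the test through its Nat10 cKO libraries alone and therefore had to differ. Dck, deoxycytidine kinase, rose by 1.08 (adjusted p = 0.000909), Nt5m, a mitochondrial deoxyribonucleotidase, rose by 0.74 (adjusted p = 0.000661) and Dpys, dihydropyrimidinase, fell by 0.86 (adjusted p = 0.000688). Of 14 tested nucleotide kinase and deoxynucleotide balance genes, 1 rose, Dctd, a deoxycytidylate deaminase also named after its value was seen (0.35, adjusted p = 0.0249), and 0 fell. Lias, Itpa and Dck passed in the same direction on all 3 scales, as did Cth; Glrx5 and Dpys did not pass on the deposited scale, and Gamt, Guk1 and Nt5m passed only with TMM scaling among the 3.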

How the data were processed

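The 6 libraries are pools of oocytes, 3 per genotype. The submitters' processing notes name featureCounts, STAR 2.7.10a, Trim Galore 0.6.7 and the mm10 build, without their settings. WT replicate 1 was deposited as raw counts. The other 5 libraries were deposited as a signal, the authors' whole reads times 1 factor per library (0.920, 0.908 and 0.932 for Nat10 cKO replicates 1, 2 and 3; 1.38 and 0.945 for WT replicates 2 and 3). The deposited values carry the label ERCC, the name of a set of spike-in RNAs, but include 0 ERCC rows. What the factors measure is not stated, so the deposited scale is an alternative. Dividing by them gave whole reads for 100% of values above 0, within 0.001. No pair of libraries agreed within sampling noise (chi-square per gene at least 12.3).

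Reads were kept for genes passing filterByExpr with a minimum count of 10 and tested with limma 3.58.1 (trended, robust) on log2 of TMM-scaled CPM plus a pseudocount of 1, which understates the change of low genes. Tests were two-sided, with Benjamini-Hochberg adjustment over 18353 genes and a threshold of 0.05. A gene that was high in 1 genotype only could pass the filter through it, as Psat1, Aldh1l2 and Uck1 did. edgeR 4.0.16 and DESeq2 1.42.0 (R 4.3.3) on recovered reads were alternatives, with other factors, pseudocounts, filters, a replicate block, each library left out and, chosen after seeing the data, reads thinned to equal depth. The scripts were tested on simulated data, in which far fewer genes changed than were called here. There limma called 38.8% of 67 genes changed 1.5-fold and 87.9% of 66 genes changed 4-fold, so a gene that did not pass may still have changed. False calls were 8.27% of all calls with limma, 9.56% with edgeR and 18.0% with DESeq2. Ratios within a library were computed from reads, and compared on log2 values with a pseudocount by an exact permutation test over 20 assignments. Gene positions are from GENCODE M21 on GRCm38, the assembly of mm10, where 53292 of 55291 symbols matched. Python 3.11.15, pandas 2.3.3 and matplotlib 3.10.9 were also used.

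The members and lists were chosen with earlier results of these data known. Every member is described; genes of neighbouring lists are named where they passed with at least a 1.5-fold change and 5 CPM on average, the 3 most abundant markers of each list are named, and genes whose exons overlap a member's are named. A gene of the neighbouring lists that met this rule is not reported here.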

Additional observations from a re-analysis of the deposited data

How the results depend on the processing

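The count of 18 members higher fell to 7 on the deposited scale, Psat1 among the 7, and to 5 with CPM times the deposited factor. Of all tested genes, 17.4% rose with TMM scaling, 6.58% on the deposited scale and 5.60% with CPM times the factor. With 1 library left out, 11 to 19 members rose, beside 11.4% to 17.8% of all tested genes. The count of 1 member lower was 0 on the deposited scale, where 1.39% of all tested genes fell. Of neighbouring genes, whose alternatives were added after seeing the data, 18 were higher and 11 lower. They were 8 and 1 on the deposited scale, and 7 were higher with CPM times the factor. With 1 library left out, 12 to 18 were higher and 7 to 13 lower, lowest without Nat10 cKO replicate 1. In those fits 2107 to 3431 of all tested genes were higher and 2201 to 3334 lower, of 18488 to 19601 tested. With the replicate number as a block, 17 members (44.7%) rose, Psat1 among them, beside 16.7% of all tested genes. In that fit 1 member fell, as did 3164 of all 18353 tested genes. Deviations of same-numbered libraries of the 2 genotypes correlated weakly (0.0789, 0.0747 and -0.120), and those of differently numbered libraries lay between -0.231 and 0.237. With 3 libraries per genotype, this cannot tell whether same-numbered samples share more than a number. edgeR and DESeq2 each gave 18 members higher (47.4%), Psat1 among them, and 1 lower. Of all tested genes, 16.6% rose with edgeR and 17.9% with DESeq2.

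Changes of members that did not pass turned sign as follows. With CPM times the factor they were -0.085 for Shmt2, -0.096 for Mthfd1l, -0.026 for Mthfd1, -0.013 for Mtr, -0.025 for Mtrr, -0.20 for Mat2b, -0.17 for Ahcyl2, -0.14 for Umps and -0.076 for Hprt. On the deposited scale they were 0.29 for Mthfd2, 0.31 for Ahcyl1 and 0.17 for Dhodh. With 1 library left out, the range was -0.030 to 0.051 for Mat2b, -0.14 to 0.075 for Ahcyl1, -0.074 to 0.18 for Ahcyl2, -0.0085 to 0.42 for Pfas and -0.0019 to 0.16 for Umps. The log2 differences of ratios ranged from -0.059 to 0.085 for Mthfd2 over Mthfd2l, from -0.17 to 0.066 for Mthfd1l over Mthfd1 and from -0.0092 to 0.13 for Ctps2 over Ctps. The cause of these changes was not tested. With 3 libraries per genotype and 33520334 to 74098613 reads, genes below about 0.177 CPM in most libraries could not be tested.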
